A study of Mus musculus with 36 samples.

Results

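Solute carriers are membrane proteins that move amino acids, metals, sugars, nucleotides, vitamins and inorganic ions across the plasma membrane and the membranes of lysosomes, the Golgi and mitochondria. Each family, named by the number after Slc, tends to share a type of substrate, and the last part of the name gives the member. In microglia, the resident macrophages of the brain, carriers set the supply of arginine and glutamine, export iron taken up from engulfed cells, and empty lysosomes of the products of digestion. The genes described here are 153 solute carrier genes read by 233 probe sets of a mouse Affymetrix expression array. They were selected on their array values, as the probe sets with a single gene symbol made of Slc and a number whose value lay above the median of its array on 2 or more of the 36 arrays. Of the 22690 probe sets of the array, 419 carry such a symbol, from 262 genes, and 233 met the rule. Slc1a3, an astrocyte glutamate transporter, was left out with its 3 probe sets that would have met it. Of the 233 probe sets, 115 were above the median on all 36 arrays, 11 failed to reach 2 such arrays among the microglia, and 40 failed to reach 2 among the BV-2 arrays. The rule's own measure placed Slc25a51 just inside with a second-highest value 0.014 above its array's median, and Slc9a3r2 with one 0.171 above. Just outside lay a probe set of Slc25a26 at -0.004 and one of Slc35a5 at -0.016.

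The 36 arrays form 18 groups of 2, each called a biological replicate in the titles. Primary microglia came from wild-type mice (WT), from mice without Usp18 (labelled Usp18 ko, here KO) and from mice labelled Usp18_C61A (here C61A). Usp18 removes the ubiquitin-like modifier ISG15 from proteins and also dampens signalling from the type I interferon receptor. BV-2, an immortalised mouse microglial line, received a small interfering RNA against Usp18 or a control one. Each kind of cell was sampled untreated and after 6 h or 24 h with interferon-beta (IFN-b) at 500 U/ml. The sources used here do not state age, strain background, how BV-2 cells were transfected or how many animals stand behind a culture. Each WT title occurs for 2 pairs of arrays. The arrays deposited with the KO arrays are called set 1 here and those deposited with the C61A arrays set 2, a division read from the deposition and not stated in the labels. KO was compared with WT of set 1 and C61A with WT of set 2. Values are log2 intensities, so a difference of 1 is a doubling. Differences were tested with limma, with p-values adjusted by Benjamini-Hochberg over all genes of a comparison and a threshold of 0.05. The p-values rest on the spread between the 2 arrays of a group, pooled over all groups of a fit. The main fit treats arrays as independent and does not pair the times of a culture.

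Several arrays stood apart. Usp18 itself, the targeted gene, lay between 3.77 and 6.42 on the 6 KO arrays and between 10.71 and 12.56 on the 4 treated WT arrays of set 1, while untreated WT of set 1 read 5.68 and 5.99 against 4.40 and 3.77 in untreated KO. In BV-2 cells the siRNA left the Usp18 probe set at 7.92 and 9.0 untreated, beside 8.38 and 8.59 with the control siRNA. Replicate 1 of untreated WT in set 2 read Usp18 at 12.97 and the interferon-induced Ifit1 at 13.16, the level of treated cells, where replicate 2 read 9.31 and 8.17. Replicate 2 of C61A at 6 h read Usp18 at 10.71 where replicate 1 read 13.04. Untreated KO arrays read Ifit1 at 12.44 and 12.19, within the range of the treated WT arrays of both sets. Of the 11 microglial markers listed for this check, 10 are on the array and 9 lay above the median on all 24 microglia arrays. On the 12 BV-2 arrays 6 of the 10 did so, and P2ry12 lay between 2.75 and 6.45. Their mean ran from 9.63 to 11.54 over microglia arrays and from 7.21 to 9.99 over BV-2 arrays, the highest of the latter on Usp18 siRNA replicate 2 at 6 h. Markers of astrocytes were higher in set 2: the mean of the 7 markers, all on the array, ran from 5.23 to 6.61 over WT of set 1 and KO and from 6.21 to 9.67 over WT of set 2 and C61A, where the water channel Aqp4 reached 10.97. In WT of set 1 at 24 h and in KO at 24 h, 4 of the 7 lay above the median on neither array. Counts from comparisons that use the 3 doubted arrays (WT set 2 untreated replicate 1, C61A 6 h replicate 2 and BV-2 Usp18 siRNA 6 h replicate 2), and the main changes of the WT response, are given with and without them. The microglia arrays among them were doubted for their interferon-induced genes, so larger IFN-b responses without them add no support. In these bulk cultures, fewer cells of a type and less RNA per cell cannot be told apart.

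By substrate class the members were 27 mitochondrial carrier genes, 26 genes for metals and heme, 20 for amino acids and peptides, 16 of the nucleotide sugar family, 14 for carboxylates, urea and organic ions, 14 for sodium, proton, chloride, bicarbonate, calcium and phosphate, 13 for vitamins, nucleosides, choline and lipids, 11 for sugars and polyols, and 8 for neurotransmitters, taurine and creatine. The family name also brings in Slc66a2, with no settled substrate, and 3 genes whose products do not transport: Slc9a3r1 and Slc9a3r2, scaffolds that bind ion exchangers, and Slc4a1ap. These assignments follow textbook family knowledge. For each gene the probe set with the highest mean was tested.

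In WT microglia after 6 h of IFN-b, 12 members rose and 15 fell of 147 tested (18.4%), while 15.4% of all 7960 genes tested passed the threshold. The members' median change was -0.10 and that of all genes -0.12. At 24 h, 6 rose and none fell in this unpaired fit, where 2.59% of all genes were called. With the culture number as a block, which pairs the times of a culture, 16 rose and 17 fell at 24 h. Untreated KO differed from untreated WT in 28 members, 13 higher and 15 lower, against a background of 16.8%. At 6 h the KO differed in 8 members, 1 higher and 7 lower (background 8.32%). At 24 h it differed in 45, 16 higher and 29 lower, which is 30.6% of the 147, and 29.1% of all genes were called. C61A differed from WT in no member at any time by limma. The background was 0.0126% untreated, 0.0126% at 6 h and 0.0251% at 24 h, and at an unadjusted p under 0.05 the counts of members were 8, 5 and 10. Of the 153 genes, 74 passed the threshold in at least 1 comparison within microglia or within BV-2. With interaction tests left aside, 29 were called in the upward direction alone, 43 in the downward direction alone, and Slc31a1 and Slc50a1 in both. The matching counts over all genes were not made, so neither the 74 nor this split is read as particular to carriers. KO differed from WT in the same direction untreated and at 24 h in 15 members, which are 53.6% of those called untreated and 33.3% of those called at 24 h, each against the WT arrays of its own time. The same overlap over all genes was not counted. Of the 10 microglial markers, Aif1 was higher in untreated KO (1.29) and Cx3cr1 (-1.72) and Fcgr3 (-2.14) lower, and at 24 h Cx3cr1 (-3.47), Trem2 (-2.56) and Fcgr3 (-1.84) were lower. None of the 7 astrocyte and none of the 3 tested neuron markers was called at either time, with median differences of -0.16 and 0.48 untreated and 0.12 and 1.80 at 24 h. Of 4 fibroblast and endothelium markers, Kdr was higher in KO untreated (3.98) and at 24 h (3.55). Of 3 oligodendrocyte markers, only Cnp was called in untreated KO, where it was higher (1.84). In WT of set 1 Kdr read 4.73 and 4.64 untreated and 7.74 and 7.81 at 6 h. Cnp there read 10.34 and 10.25 untreated and 12.23 and 12.44 at 6 h, so both also rose with IFN-b. The part of these cells in the results was not tested. The part of these shifts in the carrier differences was not tested. The plot of members called by substrate class shows how these counts divide.

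**Figure D1:**
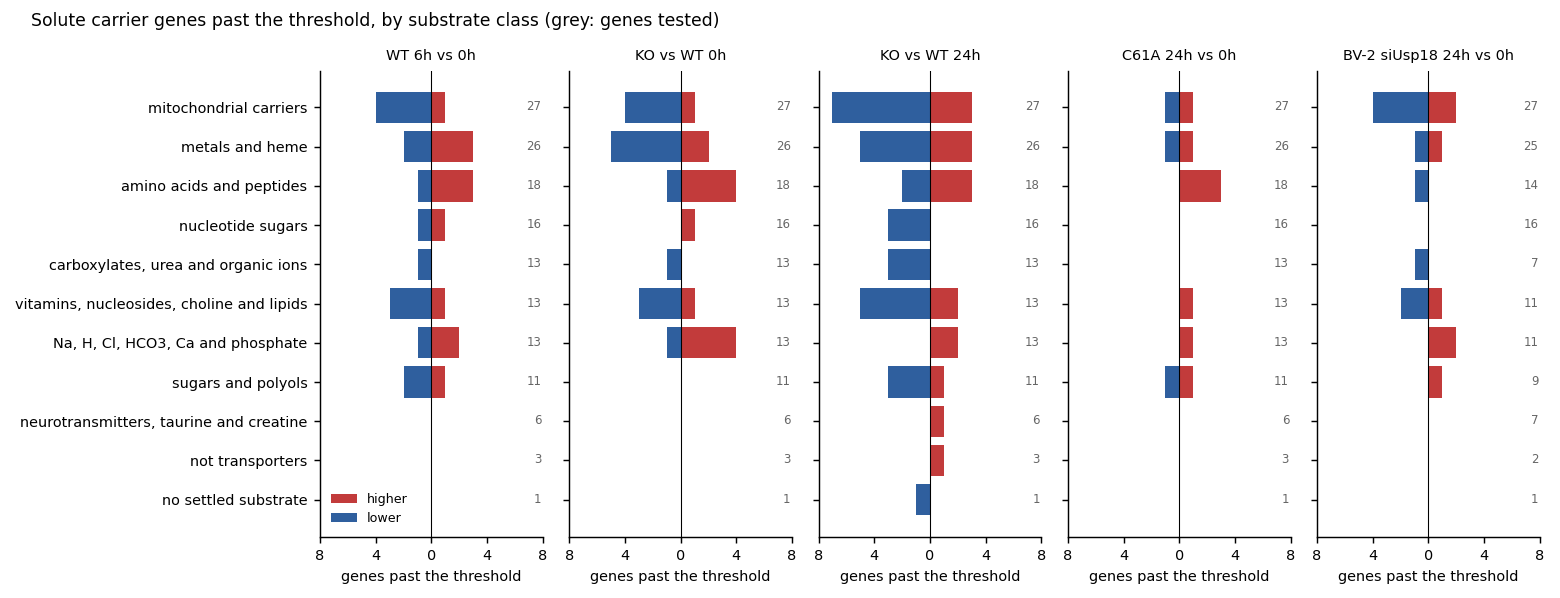
Number of solute carrier genes past the threshold in 5 comparisons, by substrate class. Bars to the right count genes higher and bars to the left genes lower in the first-named group; grey numbers give the genes tested in that class. Mitochondrial carriers, the class with the most genes, give the longest bar to the left in KO against WT at 24 h, with 7 of 27 lower. Of all genes 17.7% were lower there, and bar length is a count and not a share.

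The counts lean on single arrays. None of the 3 doubted arrays is from KO or from WT of set 1. In comparisons among those arrays, leaving the 3 out moves only the pooled spread, the genes tested and the adjustment. For untreated KO against WT, the 28 became 4 without KO replicate 1, 29 without KO replicate 2, 13 without WT replicate 1 and 7 without WT replicate 2. The 4 genes called in each of these fits were Slc12a9, Slc15a3, Slc29a3 and Slc46a3. For KO against WT at 24 h, the 45 became 22 without KO replicate 1, 32 without KO replicate 2, 22 without WT replicate 1 and 27 without WT replicate 2, and 19 genes were called in each of the fits. At 6 h the 8 became 14 without the 3 doubted arrays, 0 without KO replicate 1, 17 without KO replicate 2, 2 without WT replicate 1 and 1 without WT replicate 2. For the WT response at 6 h, the 27 became 34 without set 2 untreated replicate 1, and 17, 14, 16 and 15 without set 1 untreated replicate 1, set 1 untreated replicate 2, set 1 6 h replicate 2 and set 2 6 h replicate 1. It became 10 without set 2 untreated replicate 2 and 18 without set 2 6 h replicate 2, and 10 genes were called in each of the 8 fits. For the WT response at 24 h, the 6 became 0 without set 1 untreated replicate 1, without set 1 24 h replicate 2 or without set 2 24 h replicate 1. It became 4 without set 1 24 h replicate 1, 3 without set 2 untreated replicate 2 and 9 without set 2 untreated replicate 1.

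Tested in set 1 alone, 43 members passed the threshold at 6 h, where 24.6% of all genes did. In set 2 alone limma called 0 (0% of all genes), with 4 members at an unadjusted p under 0.05, and untreated set 2 holds the interferon-high replicate 1. Without the 2 doubted arrays of that set, an alternative chosen after seeing the data, the count in set 2 was 1 against 2.13% of all genes. That member was Slc25a22, at 1.90, a gene that was also high on the untreated array left out. This fit leaves a single untreated WT array, assumed to vary like the other groups. With the culture number as a block, which pairs the times of a culture, 52 members passed at 6 h and 33 at 24 h. Without the 3 doubted arrays the counts were 37 at 6 h and 12 at 24 h. The 6 h changes were then -2.35 for Slc40a1, 1.34 for Slc12a9, 1.26 for Slc30a1, 1.19 for Slc15a3, 1.16 for Slc29a3 and 0.92 for Slc31a2, each past the threshold. At 24 h they were 1.02 for Slc12a9, 0.96 for Slc29a3, 0.84 for Slc15a4 and 0.82 for Slc31a2, also past it. The 6 h calls of Slc25a15, Slc2a1, Slc35a1 and Slc46a1 were lost, at adjusted p = 0.0555, 0.0902, 0.0519 and 0.0601. The response of the 2 sets at 6 h differed by interaction in 5 members against 0.791% of all genes: Slc7a5, Slc30a1, Slc12a9 and Slc15a3 responded less in set 2, and the fall of Slc46a3 in set 1 had no counterpart in set 2. Slc46a3 values in set 2 lay beneath the array median, and whether a fall could be read at that level was not tested. The 5 became 0 without the 3 doubted arrays, 3 with each array centred on its median (1 and 2 in place of 1 and 4) and 16 with the culture as a block. At 24 h limma called no member different between the sets (0% of all genes), with 13 members at an unadjusted p under 0.05.

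Among carriers of vitamins, nucleosides, choline and lipids, 1 of 13 rose and 3 fell in WT at 6 h, 1 was higher and 3 lower in untreated KO, and 2 were higher and 5 lower in KO at 24 h. Slc29a3 carries nucleosides out of lysosomes. Its values were 7.94 and 8.43 in untreated WT of set 1, 9.57 and 9.78 at 6 h and 9.34 and 9.49 at 24 h. Untreated KO read 9.80 and 9.64, and KO at 24 h 10.34 and 10.41. Both untreated KO arrays lay above both untreated WT arrays of set 1. In set 2 the WT arrays read 7.98 and 7.33 untreated and 8.05 and 8.26 at 6 h, and the step was smaller than in set 1. Slc29a3 rose in WT by 0.99 at 6 h (SE 0.17, limma adjusted p = 0.00296) and at 24 h by 0.80 (limma adjusted p = 0.0185). It was higher by 1.53 in untreated KO (SE 0.23, adjusted p = 0.00112). The KO at 24 h exceeded its WT by 0.95 (adjusted p = 0.0083), the last lost without WT replicate 1.

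Slc46a3, a lysosomal carrier of the folate carrier family, moved the other way. It read 7.54 and 8.17 in untreated WT of set 1, 4.86 and 5.50 at 6 h and 7.12 and 7.21 at 24 h. The KO arrays lay between 4.75 and 5.94 at all 3 times, below all 4 untreated and 24 h WT arrays of set 1. In set 2 and C61A it lay between 3.77 and 4.84, beneath the array median, and whether a fall could be read at that level was not tested. It was lower in untreated KO, with a log2 difference of -2.32 (SE 0.29, adjusted p = 0.00032), and in KO at 24 h, with -2.20 (SE 0.29, adjusted p = 0.00027). Slc46a1, the proton-coupled folate transporter, fell in WT at 6 h (-0.82, adjusted p = 0.0309), a call lost without the 3 doubted arrays (adjusted p = 0.0601), and was lower in KO at 24 h (-1.68, adjusted p = 0.00232). Slc29a1, the nucleoside carrier of the plasma membrane, was lower in KO at 24 h (-1.55, adjusted p = 0.00135). Slc19a1, the reduced folate carrier, and Slc44a1, a choline carrier, were lower in KO both untreated (-0.67 and -1.14) and at 24 h (-0.63 and -0.96). Those 4 values each lost their call without single arrays. Slc43a3, a nucleobase carrier, was higher in KO at 24 h by 2.68 (SE 0.51, adjusted p = 0.00184). Its KO values were 6.22 and 4.87 untreated and 7.87 and 7.51 at 24 h, where WT of set 1 stood at 4.67 and 5.35. The groups lay apart at 24 h.

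Of 26 metal and heme carriers, 2 were higher and 5 lower in untreated KO, 3 higher and 5 lower in KO at 24 h, and 3 rose and 2 fell in WT at 6 h. Slc40a1 is ferroportin, which exports iron from cells, and it had the largest log2 difference of any member in untreated KO. It read 9.94 and 10.41 in untreated WT of set 1, 6.77 and 7.04 at 6 h, and 7.63 and 8.43 at 24 h. KO arrays read 5.13 and 6.87 untreated, 4.11 and 5.57 at 6 h and 4.27 and 5.17 at 24 h. All 6 KO arrays lay below the 2 untreated and the 2 24 h WT arrays of that set. The difference was -4.17 untreated (SE 0.84, limma adjusted p = 0.00556) and -3.31 at 24 h (adjusted p = 0.0102); at 6 h it was -2.06 and not called (adjusted p = 0.144). Each call was lost without KO replicate 1 or WT replicate 2, with changes from -5.04 to -3.31 in the leave-one-out fits untreated and from -3.76 to -2.86 at 24 h. The fall in WT at 6 h (-1.93, adjusted p = 0.0414) was -2.88 in set 1 and -0.59 in set 2, where the untreated arrays read 5.99 on the interferon-high replicate 1 and 7.68 on replicate 2. Without the 3 doubted arrays Slc40a1 fell in WT by -2.35 (adjusted p = 0.00228), and in set 2 alone its change was then -1.44 (adjusted p = 0.17). C61A read 8.01 and 8.36 untreated, 5.36 and 8.47 at 6 h and 3.59 and 4.10 at 24 h. C61A at 24 h was thus lower than untreated C61A by -4.34 (SE 0.84, adjusted p = 0.00996), the call lost without 3 of the 4 arrays (C61A 24 h replicates 1 and 2 and untreated replicate 2). Ferroportin in BV-2 cells lay between 7.02 and 9.23 and no comparison there called it.

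Slc48a1 carries heme out of lysosomes. It read 9.77 and 9.85 in untreated WT of set 1 and 7.93 and 8.54 in untreated KO. At 6 h WT read 8.69 and 9.11 against 7.11 and 8.0 in KO, and at 24 h 8.80 and 9.03 against 6.80 and 7.14. The groups did not overlap at any of the 3 times. Its differences in that order were -1.58 (adjusted p = 0.0084), -1.35 (adjusted p = 0.0299) and -1.95 (adjusted p = 0.00124), and the last was called in each leave-one-out fit. It is one of 3 members, with Slc25a36 and Slc30a5, that were lower in KO at all 3 times. That overlap was not counted over all genes. Slc30a5, which loads zinc into the secretory pathway, was lower at the 3 times, with log2 differences of -0.97, -0.90 and -1.31 and adjusted p-values of 0.0209, 0.0428 and 0.00227. Slc39a8, an importer of zinc and manganese, read 6.75 and 7.39 in untreated WT of set 1 and 4.69 and 5.68 in untreated KO (-1.88, adjusted p = 0.00678). At 24 h it differed by -1.47 (adjusted p = 0.0132).

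Slc31a2, a copper carrier of endosomes, read 9.62 and 9.87 in untreated WT of set 1 and 11.08 and 11.26 at 6 h. KO read 10.92 and 10.68 untreated and 11.43 and 11.40 at 6 h. In set 2 the higher values came at 24 h, at 11.12 and 10.75 against 10.17 and 9.68 untreated. In WT its rise was 0.80 at 6 h (adjusted p = 0.00459), then 0.70 at 24 h (adjusted p = 0.018), and it was higher in untreated KO by 1.05 (SE 0.20, adjusted p = 0.00456). Slc30a1, the zinc exporter of the plasma membrane, read 5.78 and 5.79 in untreated WT of set 1, 7.56 and 7.96 at 6 h and 5.85 and 6.07 at 24 h. Its WT levels had come back at 24 h, while KO stayed between 6.88 and 7.73 throughout. Slc30a1 was higher by 1.31 in untreated KO (adjusted p = 0.00588). At 24 h the difference was 1.09 (adjusted p = 0.00849). In set 2 it read 7.25 and 6.60 untreated and 6.89 and 7.41 at 6 h, and its WT rise of 1.10 (adjusted p = 0.0036) was 1.97 in set 1 and 0.23 in set 2. Of 9 other iron and zinc genes tested from a list of 13, 1 was higher and 3 lower in untreated KO: ceruloplasmin (Cp, 1.84), metallothioneins Mt1 (-2.86) and Mt2 (-2.20), which bind zinc, and Aco1 (-1.08), an iron sensor. At 24 h 3 were lower in KO: the transferrin receptor Tfrc (-2.58), Mt1 (-2.42) and Aco1 (-1.08).

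**Figure D2:**
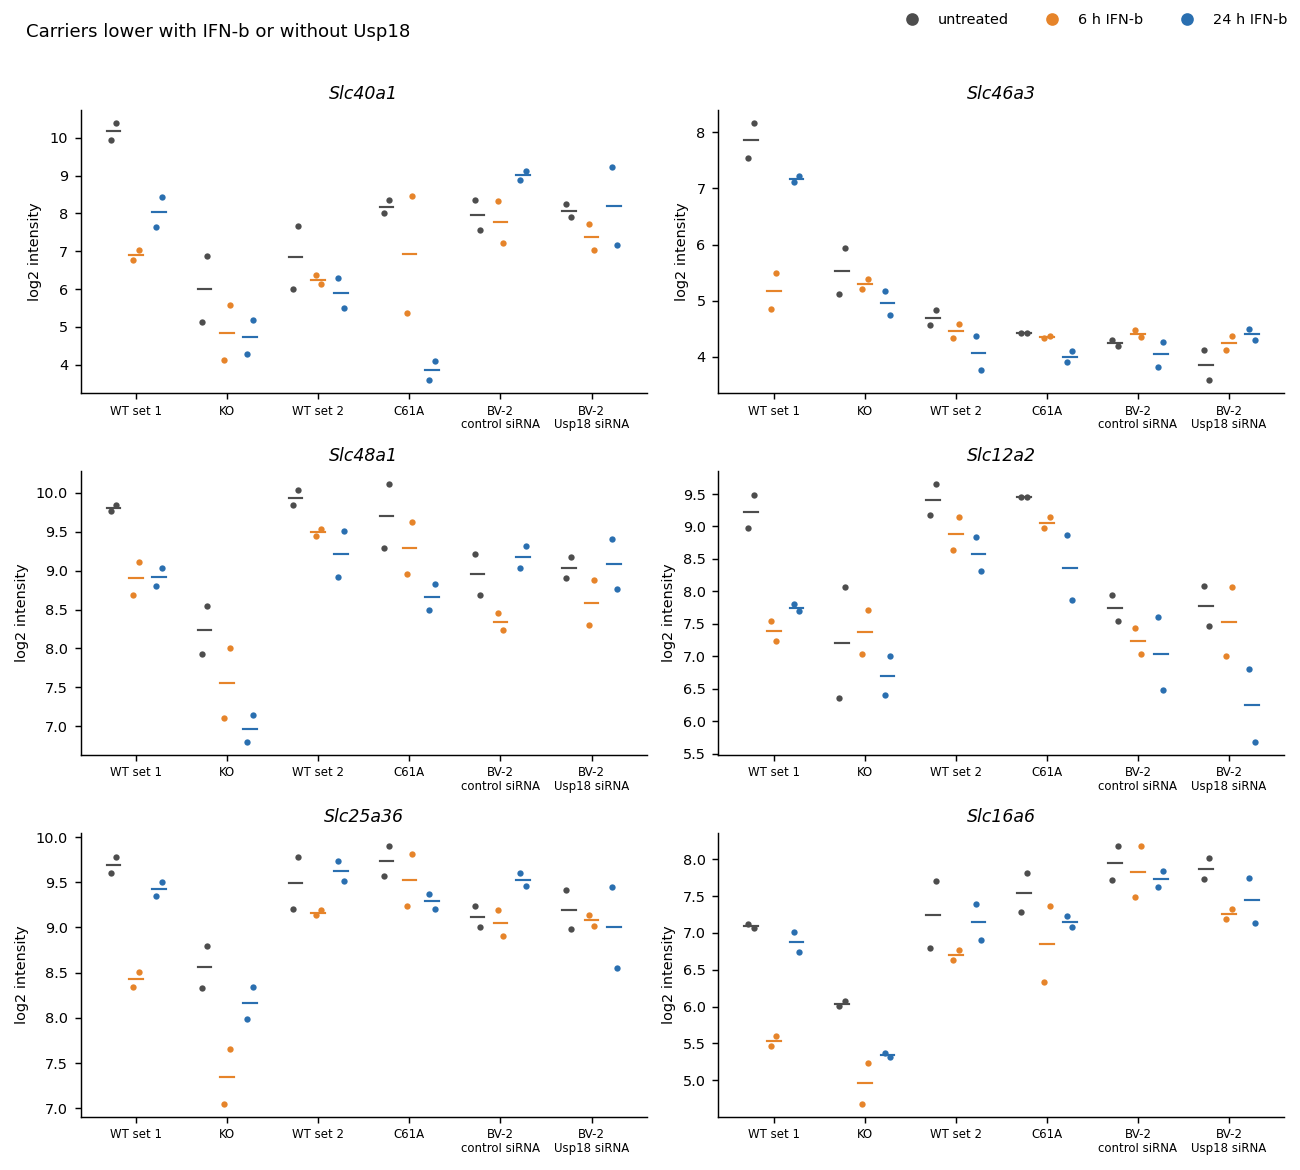
Log2 intensity of 6 carriers on each of the 36 arrays, by kind of cell and time with IFN-b; points are arrays and bars are means of 2. Slc40a1 and Slc46a3 start high in WT of set 1, at 9.94 and 10.41 and at 7.54 and 8.17, and the KO arrays lie below the untreated WT arrays of set 1 in all 6 panels.

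Of 18 carriers of amino acids and peptides, 3 rose and 1 fell in WT at 6 h, 4 were higher and 1 lower in untreated KO, and 3 were higher and 2 lower in KO at 24 h. Slc15a3 and Slc15a4 carry histidine and small peptides out of endolysosomes. Slc15a3 read 10.40 and 10.72 in untreated WT of set 1, 12.25 and 12.55 at 6 h and 11.18 and 11.15 at 24 h, and KO lay between 11.55 and 12.51. In set 2 it was already at 11.94 and 11.48 untreated. It rose in WT at 6 h by 1.08 (SE 0.15, limma adjusted p = 0.00154), 1.84 in set 1 and 0.31 in set 2, and was higher by 1.29 in untreated KO (adjusted p = 0.0021) and by 1.30 in KO at 24 h (adjusted p = 0.00091). Slc15a4 read 8.43 and 8.65 in untreated WT of set 1 and 9.05 and 9.63 at 24 h, and 7.19 and 7.60 against 8.77 and 8.19 in set 2. The untreated and 24 h arrays did not overlap in either set. Its rise at 24 h was 0.94 (adjusted p = 0.0173), 0.80 in set 1 and 1.09 in set 2, though neither set alone reached the threshold. Untreated KO was higher by 0.92 (adjusted p = 0.0346), a call lost in each of the 4 leave-one-out fits.

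Slc3a2, the chain shared by several amino acid exchangers, rose in WT at 6 h by 0.53 (adjusted p = 0.0237) and was higher in KO at 24 h by 0.79 (adjusted p = 0.0105). Its WT change at 6 h was 0.91 in set 1 and 0.16 in set 2. Slc7a5, its leucine-exchanging partner, read 6.20 and 5.65 in untreated WT of set 1 and 7.55 and 7.20 in untreated KO, without overlap. It was higher in untreated KO by 1.45 (adjusted p = 0.0118). Slc7a8, another partner, was 9.79 and 9.77 in WT of set 1 at 6 h beside 8.25 and 8.04 untreated and 8.14 and 7.94 at 24 h. The KO lay between 8.69 and 9.27 and showed no such peak. Slc7a7, a partner that exports arginine, had a difference of -0.06 in untreated KO (adjusted p = 0.916). It was lower in KO at 6 h by limma (-1.33, adjusted p = 0.0101), and the difference at 24 h was -1.59 (adjusted p = 0.00076). Slc7a2, which imports arginine, read 6.04 and 5.85 in KO at 24 h against 3.83 and 3.92 in WT, higher by 2.07 (SE 0.42, adjusted p = 0.00287). In WT of set 1 it stood at 6.37 and 4.79 at 6 h. Of 5 arginine-using enzymes tested, Nos2 was higher in KO at 24 h (1.18, adjusted p = 0.0259) and Arg2 lower in untreated KO (-2.88, adjusted p = 0.00682).

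Genes of the amino acid stress response were followed from a list chosen with earlier results of these data known. That response answers a shortage of amino acids or a block in protein folding, and includes activators of several carriers. Of 12 tested, 6 were higher in untreated KO and none lower: Nupr1 (3.37), Ddit3 (3.20), Asns (2.18), Atf5 (1.79), Chac1 (1.78) and Atf4 (1.31). Of all genes, 8% were higher and 8.78% lower there. The median of the 12 was 1.55 and that of all genes -0.10. At 24 h 5 were higher in KO, among them Trib3 (2.55) and Ddit3 (1.69), and 5 rose in WT at 6 h with a median of 0.78. In those comparisons 11.3% and 7.59% of all genes were called higher. Of 9 genes of glutathione and oxidative defence, Gclm (-2.02) and Hmox1 (-1.64) were lower in untreated KO, and Gclm, Gss and Hmox1 at 24 h. Slc7a11, the cystine importer often read with them, was not called in KO, and its values in microglia lay between 4.14 and 5.77.

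Of 13 ion carriers, 4 were higher and 1 lower in untreated KO, 2 rose and 1 fell in WT at 6 h, and 2 were higher in KO at 24 h. Slc12a9 belongs to the cation-chloride cotransporter family and has no settled substrate of its own. It had the smallest adjusted p of any member in untreated KO. It read 7.34 and 7.37 in untreated WT of set 1, 9.29 and 9.44 at 6 h and 8.89 and 9.02 at 24 h. All 6 KO arrays lay between 9.16 and 9.79. In set 2 WT read 7.41 and 6.98 untreated, 7.41 and 7.89 at 6 h and 7.57 and 7.25 at 24 h, and the 6 h values were not clear of the untreated ones. Slc12a9 was higher in untreated KO by 2.21 (SE 0.23, limma adjusted p = 7e-05), between 2.05 and 2.38 in the leave-one-out fits. Its rise in WT at 6 h was 1.23 (adjusted p = 0.0009), with 2.01 in set 1 and 0.46 in set 2. The rise at 24 h was 0.91 (adjusted p = 0.00975), with 1.60 in set 1 and 0.22 in set 2. Slc12a2, the sodium-potassium-chloride cotransporter that brings chloride into cells, read 8.97 and 9.48 in untreated WT of set 1, 7.55 and 7.24 at 6 h and 6.36 and 8.06 in untreated KO. It was lower in untreated KO (-2.02, adjusted p = 0.0105), ranging from -2.87 to -1.17 in the leave-one-out fits, with the call lost without KO replicate 1 or WT replicate 2. Slc8a1, a sodium-calcium exchanger, was higher in untreated KO by 0.69 (adjusted p = 0.03), a call kept in 1 of 4 leave-one-out fits, and by 1.36 in KO at 24 h (adjusted p = 0.00045). Slc24a3, an exchanger that also carries potassium, was higher in KO at 24 h by 1.89 (adjusted p = 0.00062). Slc24a3 read 7.80 and 7.57 in KO at 24 h and 5.59 and 6.01 in WT of set 1. Its groups were far apart then, whereas untreated they read 6.91 and 6.25 against 6.62 and 6.89.

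Of 27 mitochondrial carriers, 1 rose and 4 fell in WT at 6 h, 1 was higher and 4 lower in untreated KO, and 3 were higher and 7 lower in KO at 24 h. Slc25a22 carries glutamate into mitochondria. It read 7.14 and 7.09 in untreated WT of set 1, 9.26 and 9.45 at 6 h and 8.16 and 8.34 at 24 h. Untreated KO read 9.52 and 9.10, above both untreated WT arrays. In set 2 the interferon-high untreated replicate 1 read 8.88 and replicate 2 read 6.60, beside 8.48 and 8.52 at 6 h. Slc25a22 rose in WT at 6 h by 1.5 (SE 0.39, adjusted p = 0.0217), and by 2.07 without the 3 doubted arrays. Untreated replicate 1 of set 2 was doubted for its interferon-induced genes, and Slc25a22 was high on it too. The larger rise without it therefore adds no support. Slc25a22 was higher in untreated KO by 2.19 (SE 0.55, adjusted p = 0.017), a call lost without KO replicate 1 or either WT array (changes between 1.98 and 2.40). Without the 3 doubted arrays, none of which enters this comparison, the difference was also 2.19. The SE is pooled over all microglia groups, among them untreated WT of set 2, where the doubted replicate 1 stood at 8.88 and replicate 2 at 6.60. Slc25a28, which brings iron into mitochondria, read 8.32 on the same doubted array and 6.72 on its partner.

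The lower mitochondrial carriers included Slc25a36, a pyrimidine nucleotide carrier. Its KO arrays read 8.33 and 8.80 untreated against 9.60 and 9.78 in WT of set 1, 7.05 and 7.65 against 8.34 and 8.51 at 6 h, and 7.99 and 8.34 against 9.35 and 9.50 at 24 h. Its groups were apart at each time, by -1.12, -1.08 and -1.26 (adjusted p = 0.0105, 0.0226 and 0.00275). Slc25a30 fell in WT at 6 h (-1.04, adjusted p = 0.00233), with -1.22 in set 1 and -0.86 in set 2, where the threshold was missed (adjusted p = 0.997). Its set 2 arrays at 6 h, at 6.5 and 6.43, lay clear of the untreated ones at 7.20 and 7.45. Late in the KO, Slc25a10, a dicarboxylate carrier, was lower (-1.19, adjusted p = 0.00111), as was Slc25a5, an exchanger of ADP and ATP (-1.04, adjusted p = 0.00273). Slc25a10 and Slc25a5 were also lower in KO at 24 h than in untreated KO (-1.18 and -0.82). Slc25a4, the other such exchanger, was called lower in KO at 24 h (-1.64, adjusted p = 0.0416). The call was lost without the 3 doubted arrays, though none of them enters this comparison and the change stayed at -1.64. Slc25a44 is left without a direction, since its probe sets disagree (1.05 on the tested one and -0.42 on another).

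**Figure D3:**
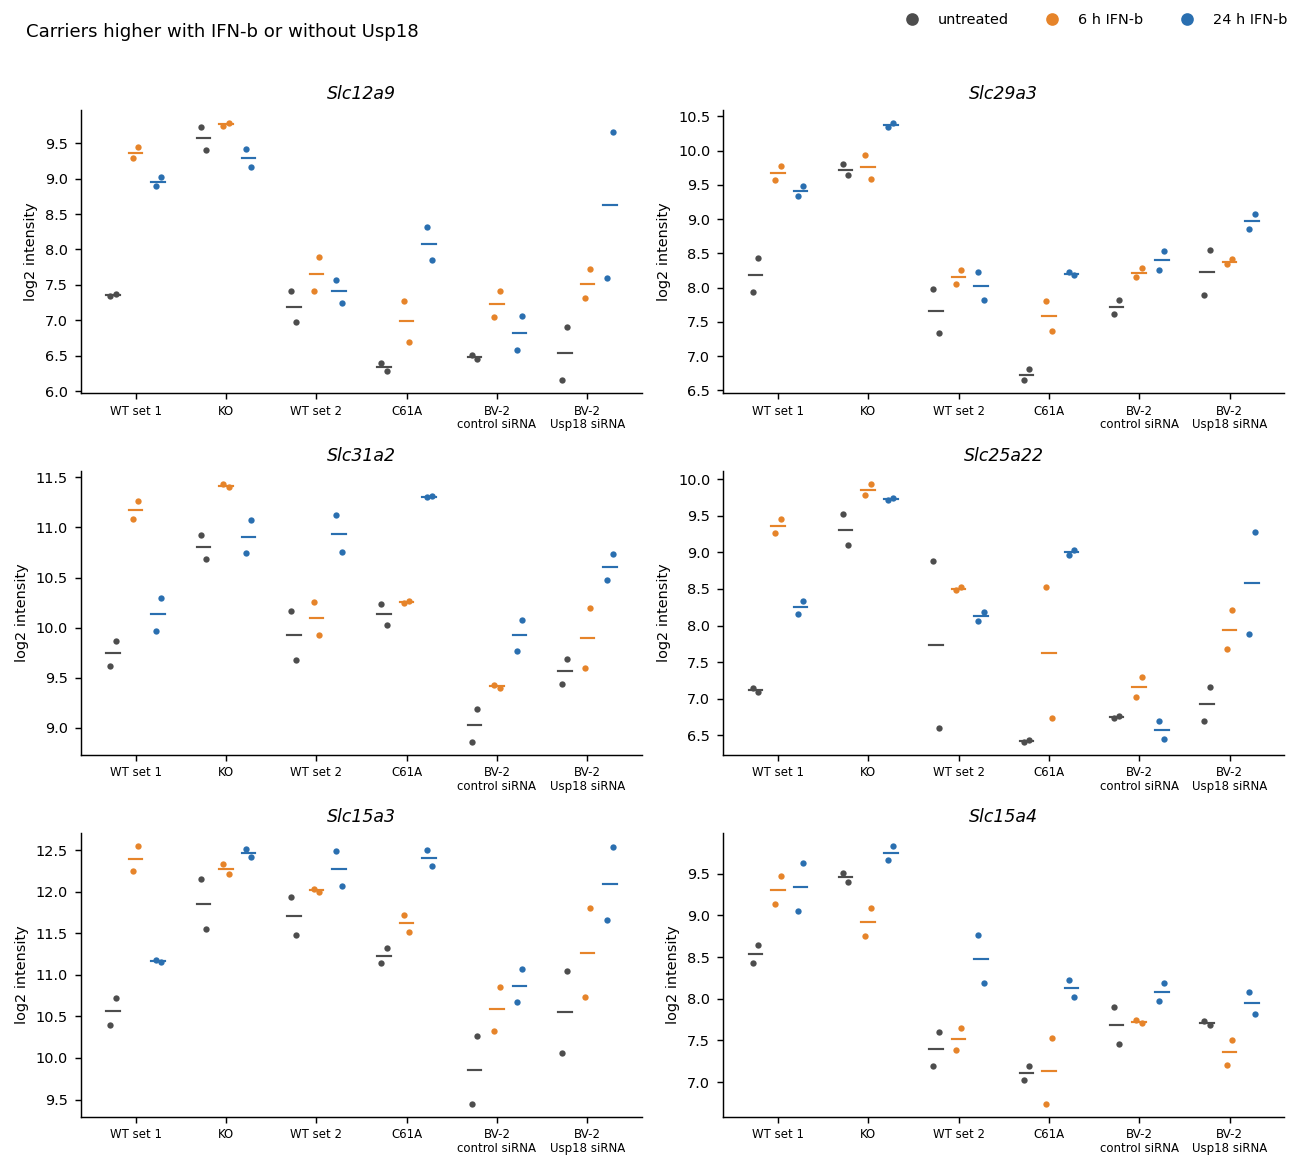
Log2 intensity of 6 carriers on each of the 36 arrays, by kind of cell and time with IFN-b; points are arrays and bars are means of 2. For Slc12a9 the 6 KO arrays lie between 9.16 and 9.79 at all times, while WT of set 1 starts at 7.34 and 7.37; for Slc25a22 the untreated WT arrays of set 2 lie apart at 8.88 and 6.60.

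The promoters of 4 of these genes are shown to set the responses beside the sequence before the gene: Slc12a9, Slc29a3 and Slc25a22, which rose, and Slc46a3, which fell. They are RefSeq windows of 300 bases, 250 before and 50 after a start site, in build GRCm38.p6, each read 5′ to 3′ on the strand of the gene. Capitals mark matches to a core of the interferon-stimulated response element (GAAANNGAAA, either strand) or of the gamma-activated site (TTCNNNGAA, the same on both strands).
Slc25a22, chr7:141435326-141435625, minus strand: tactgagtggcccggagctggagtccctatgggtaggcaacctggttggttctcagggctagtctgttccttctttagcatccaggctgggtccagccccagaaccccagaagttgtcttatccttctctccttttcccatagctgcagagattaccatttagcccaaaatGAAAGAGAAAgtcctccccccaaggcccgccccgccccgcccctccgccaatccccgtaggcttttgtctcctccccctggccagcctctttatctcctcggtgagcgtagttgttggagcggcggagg
Slc46a3, chr5:147894766-147895065, minus strand: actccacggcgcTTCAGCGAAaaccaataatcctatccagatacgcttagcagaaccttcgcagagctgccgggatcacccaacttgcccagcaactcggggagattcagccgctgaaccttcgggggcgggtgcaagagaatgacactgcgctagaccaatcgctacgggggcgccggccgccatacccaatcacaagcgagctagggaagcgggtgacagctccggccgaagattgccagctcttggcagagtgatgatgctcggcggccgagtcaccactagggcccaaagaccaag
Slc12a9, chr5:137333533-137333832, minus strand: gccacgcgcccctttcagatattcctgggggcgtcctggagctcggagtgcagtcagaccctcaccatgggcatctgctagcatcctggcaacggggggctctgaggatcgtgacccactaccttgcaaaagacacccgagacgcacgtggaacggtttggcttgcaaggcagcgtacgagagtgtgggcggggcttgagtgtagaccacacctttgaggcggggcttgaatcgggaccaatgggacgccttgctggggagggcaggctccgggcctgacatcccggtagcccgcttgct
Slc29a3, chr10:60752733-60753032, minus strand: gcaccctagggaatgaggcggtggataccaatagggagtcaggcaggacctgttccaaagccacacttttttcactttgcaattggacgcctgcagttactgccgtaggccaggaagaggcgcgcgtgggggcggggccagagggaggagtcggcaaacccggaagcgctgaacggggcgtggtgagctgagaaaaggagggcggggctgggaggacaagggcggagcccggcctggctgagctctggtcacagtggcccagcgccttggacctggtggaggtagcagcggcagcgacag
The Slc25a22 window, 1 of 3 for that gene, holds GAAAGAGAAA with its first base at position -79 from the start site, and the other windows hold neither core. The Slc46a3 window holds TTCAGCGAA from position -238. Neither core is in the window of Slc12a9 or of Slc29a3. Over all 32851 windows of the table the first core occurs in 3.44% and the second in 8.3%. Over the 172 windows of the 118 member genes with an entry it occurs in 1.74% and 2.91%, the first in windows of Slc25a15, Slc25a22 and Slc37a1. A match is a run of letters and no measured binding.

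Of 11 sugar carriers, none was called in untreated KO, and 1 was higher and 3 lower in KO at 24 h. Slc2a8, an intracellular glucose carrier, was lower then (-1.67, adjusted p = 0.00084), at 6.85 and 6.17 against 8.03 and 8.34. Slc37a2, a sugar-phosphate exchanger of the endoplasmic reticulum, fell in WT at 6 h (-0.84, adjusted p = 0.0441), at 8.44 and 8.94 in set 1 beside 10.25 and 10.23 untreated. Its change was -1.55 in set 1 and -0.14 in set 2. Its KO values were lower at 24 h (-1.35, adjusted p = 0.0156). Slc50a1, a sugar carrier, rose in WT at 24 h (0.51, adjusted p = 0.0114) and was lower in KO than in WT at that time (-0.87, adjusted p = 0.0006). Slc2a1, the main glucose importer of many cells, read 8.0 and 7.82 in untreated WT of set 1 and 8.95 and 9.05 at 6 h, but 11.13 and 11.31 and then 10.96 and 11.11 in set 2. Its WT rise of 0.46 (adjusted p = 0.0432) was 1.11 in set 1 and -0.18 in set 2, and no leave-one-out fit called it. In KO Slc2a1 rose by 0.98 at 6 h (adjusted p = 0.0122). Of 12 glycolysis genes tested, Pfkfb3 (1.89) and Pfkp (1.5), both of the phosphofructokinase step, were higher in untreated KO.

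Of 13 carboxylate and organic ion carriers, 1 was lower in untreated KO and 3 at 24 h. Slc16a6, of the monocarboxylate family, read 6.01 and 6.07 in untreated KO against 7.12 and 7.07 in WT of set 1, and 5.37 and 5.32 against 7.02 and 6.74 at 24 h. Its difference was -1.05 (adjusted p = 0.0422), called in no leave-one-out fit, and then -1.54 (adjusted p = 0.00381), called in each. In WT it fell at 6 h (-1.06, adjusted p = 0.00974), to 5.46 and 5.60 in set 1. Slc13a3, a sodium-coupled carrier of dicarboxylates such as succinate and alpha-ketoglutarate, was lower in KO at 24 h (-2.11, adjusted p = 0.0287), at 5.24 and 5.04 against 8.03 and 6.48. Of 16 nucleotide sugar carriers, Slc35f5, whose substrate is unsettled, rose in WT at 6 h (0.53, adjusted p = 0.0194) and was higher in untreated KO (1.02, adjusted p = 0.00405). Its WT change was 0.96 in set 1 and 0.10 in set 2. At 24 h 3 of that family were lower in KO, led by Slc35b4 (-1.16, adjusted p = 0.00134). Of 6 carriers of neurotransmitters, taurine and creatine, Slc6a8, the creatine importer, was higher in KO at 24 h (0.84, adjusted p = 0.0425), a call lost in each leave-one-out fit. Slc66a2 was lower in KO at 24 h (-1.13, adjusted p = 0.0416), and the scaffold Slc9a3r1 higher (0.78, adjusted p = 0.0287), each without a call once some single array was left out.

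**Figure D4:**
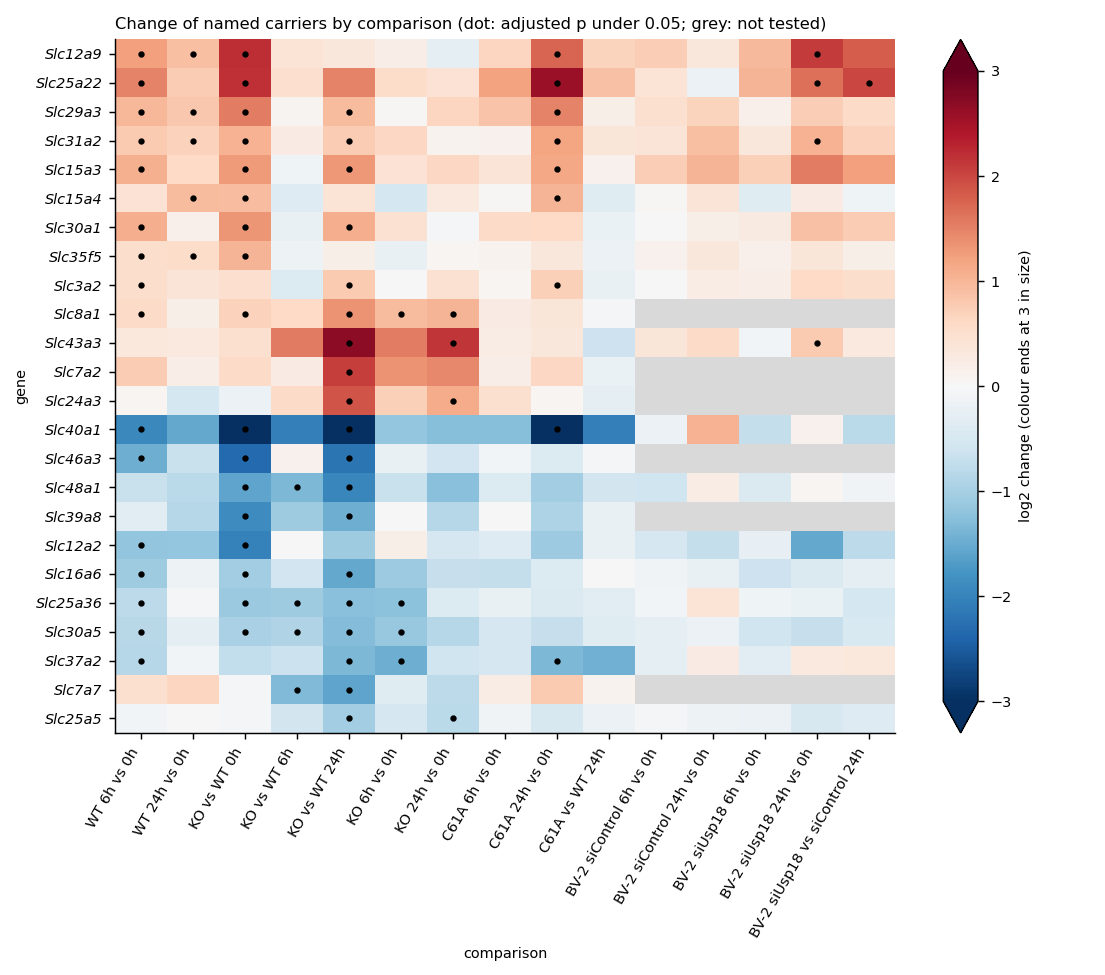
Log2 change of 24 carriers in 15 comparisons; red is higher and blue lower in the first-named group or time, dots mark an adjusted p under 0.05, grey cells were not tested, and the colour stops at 3 in size. Slc12a9 and Slc25a22 are red with a dot for WT at 6 h, untreated KO and C61A at 24 h, and Slc40a1, at -4.17 in untreated KO and -4.34 in C61A at 24 h, exceeds the colour range.

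Within the KO, IFN-b at 6 h changed 15 members (3 higher, 12 lower, background 8.45%) and at 24 h 7 (3 higher, 4 lower, background 3.97%). The 15 became 26 and the 7 became 9 without the 3 doubted arrays, and 37 and 25 with the culture as a block. Leaving out single arrays took the counts to between 0 and 22 and between 0 and 13. Among those lower at 6 h were Slc37a2 (-1.46), Slc25a36 (-1.22), Slc30a5 (-1.15) and Slc7a6 (-1.10), an arginine and leucine exchanger. Those higher at 24 h were Slc43a3 (2.14), Slc24a3 (1.10) and Slc8a1 (1.03). By the interaction test the 6 h response of KO differed from that of WT set 1 in 4 members (1.14% of all genes) and the 24 h response in 2 (0.716%). The 4 became 12 without the 3 doubted arrays, 2 after centring on the array median (1 and 1 in place of 1 and 3) and 15 with the culture as a block. The 2 became 5, 1 and 12. Leaving out single arrays gave 0 to 4 and 0 to 1. Slc12a9 responded less in KO at both times (-1.81 and -1.88), Slc7a8 and Slc15a3 less at 6 h (-1.61 and -1.42), and Slc46a3 fell less (2.45). Slc24a3 responded more at 24 h (2.06). KO values of Slc12a9 and Slc15a3 were high before IFN-b, and these comparisons share the untreated arrays with that of untreated KO. The untreated KO mean of Slc46a3 already lay below the lowest array median of 5.594, and whether a further fall could be read at that level was not tested.

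C61A microglia responded over 24 h. At 6 h no member was called by limma (background 0.0503%, 5 members at an unadjusted p under 0.05), though without the 3 doubted arrays, which include C61A 6 h replicate 2, 8 were. At 24 h 8 rose and 3 fell (background 9.1%), with 8 and 1 once each array was centred on its median. With the culture as a block 33 were called, 16 higher and 17 lower. The risers of the main fit were Slc25a22 (2.58), Slc12a9 (1.74), Slc29a3 (1.48), Slc15a3 (1.17), Slc31a2 (1.17), Slc15a4 (1.02), Slc3a2 (0.71) and Slc50a1 (0.46). Slc40a1, Slc37a2 (-1.34) and Slc25a30 (-0.80) fell. C61A arrays read Slc25a22 at 6.41 and 6.43 untreated, 8.52 and 6.73 at 6 h and 8.97 and 9.03 at 24 h, the low value at 6 h lying on the doubted replicate 2. Slc12a9 read 6.40 and 6.28 untreated and 8.31 and 7.85 at 24 h. The count of 11 became 4 without untreated replicate 1, 2 without 24 h replicate 1, 4 without untreated replicate 2 and 4 without 24 h replicate 2, and Slc12a9 and Slc29a3 were called in each. By interaction with WT of set 2, limma called no member in the C61A response at 6 h (0% of all genes, 0 members at an unadjusted p under 0.05) or 24 h (0%, 6 members at an unadjusted p under 0.05). For Slc12a9 that difference at 24 h was 1.52 (SE 0.33, adjusted p = 0.764). For Slc40a1 it was -3.40 (SE 1.19, adjusted p = 0.764). Untreated WT of set 2 includes the interferon-high replicate 1, and without the 3 doubted arrays limma called 2 members between C61A and WT at 24 h, 0 untreated, 0 at 6 h and 0 by either interaction. The 11 that C61A changed over 24 h were then 15.

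In BV-2 cells IFN-b with the control siRNA changed no member of 130 tested by limma at 6 h (background 0.991%, 10 members at an unadjusted p under 0.05) or 24 h (0.503%, 8 members). With the Usp18 siRNA 1 fell at 6 h, Slc6a12, a betaine and GABA carrier (-1.45, adjusted p = 0.0496, background 1.97%), a call lost without the 3 doubted arrays (adjusted p = 0.156). At 24 h 7 rose and 9 fell (background 15.9%), with 7 and 4 after centring on the array median. With the culture as a block the counts were 2 for the control siRNA at 24 h, and 16 and 37 for the Usp18 siRNA at 6 h and 24 h. Slc12a9 read 6.16 and 6.91 untreated and 7.60 and 9.66 at 24 h (2.09, adjusted p = 0.0366), and Slc25a22 6.69 and 7.16 against 7.89 and 9.28 (1.66, adjusted p = 0.0262). In both genes replicate 2 stood well above replicate 1 at 24 h. Slc8b1, the mitochondrial sodium-calcium exchanger (1.19), Slc31a2 (1.04), Slc25a28 (1.01), Slc37a3 (0.96) and Slc43a3 (0.77) also rose. Among those that fell were Slc25a15, which carries ornithine (-1.70), Slc16a1, the lactate carrier (-1.16), Slc29a1 (-1.10), Slc25a13, the aspartate-glutamate carrier (-1.06), and Slc1a5, the glutamine carrier (-0.99). The 16 became 0 without untreated replicate 1, 2 without untreated replicate 2, 38 without 24 h replicate 1 and 1 without 24 h replicate 2.

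The Usp18 siRNA differed from the control siRNA in no member by limma untreated (0% of all genes, 4 members at an unadjusted p under 0.05) or at 6 h (0%, 10 members). At 24 h 3 of 130 differed where 5.35% of all genes did: Slc25a22 (2.02, adjusted p = 0.0319), Slc25a28 (0.85, adjusted p = 0.0276) and Slc29a1 (-1.25, adjusted p = 0.0487). After centring on the array median 2 were higher and 0 lower. Control arrays read Slc25a22 at 6.69 and 6.45 and Slc25a28 at 8.23 and 7.96, against 8.92 and 8.96 of Slc25a28 with the Usp18 siRNA. The values did not overlap in either gene. The count became 7 without the 3 doubted arrays, 20 with a block for the replicate number, 32 without Usp18 siRNA replicate 1, 0 without Usp18 siRNA replicate 2 and 0 without either control array. By interaction the IFN-b response differed between the siRNAs in no member at 6 h (0%, 4 members at an unadjusted p under 0.05) or 24 h (0.0279%, 8 members). On the 24 h arrays Usp18 itself read 11.07 and 11.48 with its siRNA, beside 11.51 and 11.73 with the control siRNA. Limma did not call that difference (-0.34).

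The line and the primary cells differed in many transporters. Untreated BV-2 with control siRNA differed from untreated WT microglia in 88 of 153 members (57.5%), 36 higher and 52 lower, where 58.7% of all 8260 genes did. Cell system and deposition run cannot be told apart in this comparison. The WT side is the mean of both sets. Against each WT set alone, alternatives chosen after seeing the data, 85 members differed for set 1 (53.9% of all genes) and 73 for set 2 (53.8%). Without single arrays the count lay between 71 and 86, and without the 3 doubted arrays it was 88. Centring each array moved the median of all genes from -0.02 to 0.09 and gave 40 higher and 44 lower members. Members lower in BV-2 included Slc13a3 (-6.51, adjusted p = 0.00023), Slc39a8 (-4.21, adjusted p = 3.7e-06), Slc7a7 (-4.0, adjusted p = 1.4e-06) and Slc1a1, a glutamate and cysteine importer (-3.98, adjusted p = 0.00057). Slc15a2, a dipeptide importer (-2.74), Slc24a3 (-2.62), the glucose carrier Slc2a3 (-2.18) and the taurine carrier Slc6a6 (-2.13) were lower as well. The BV-2 means of Slc13a3 (3.41), Slc39a8 (3.02), Slc7a7 (4.38), Slc1a1 (3.13), Slc15a2 (3.41), Slc24a3 (4.08) and Slc2a3 (4.91) lay under the lowest array median of 5.594. The files hold no detection calls, so the sizes of these differences carry no order. Members higher in BV-2 included Slc6a13, a GABA and taurine carrier (4.03, adjusted p = 8.4e-08), Slc1a5 (2.92, adjusted p = 3.9e-09), Slc38a4, an amino acid carrier (2.78), Slc30a4, a zinc carrier (2.58), and Slc16a1 (2.54). Slc6a13 read 7.98 and 8.06 in untreated BV-2 control cells. Its values in untreated WT lay between 3.43 and 4.65. Slc38a4 read 5.93 and 5.30 there and no higher than 3.5 on any microglia array. Those microglia values of Slc6a13 and Slc38a4 likewise lay under the array medians. For members whose WT sets differed, the size depended on the set: the difference of Slc13a3 was -4.56 against set 1 and -8.47 against set 2, that of Slc1a5 1.8 and 4.05, and that of Slc16a1 3.58 and 1.5.

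**Figure D5:**
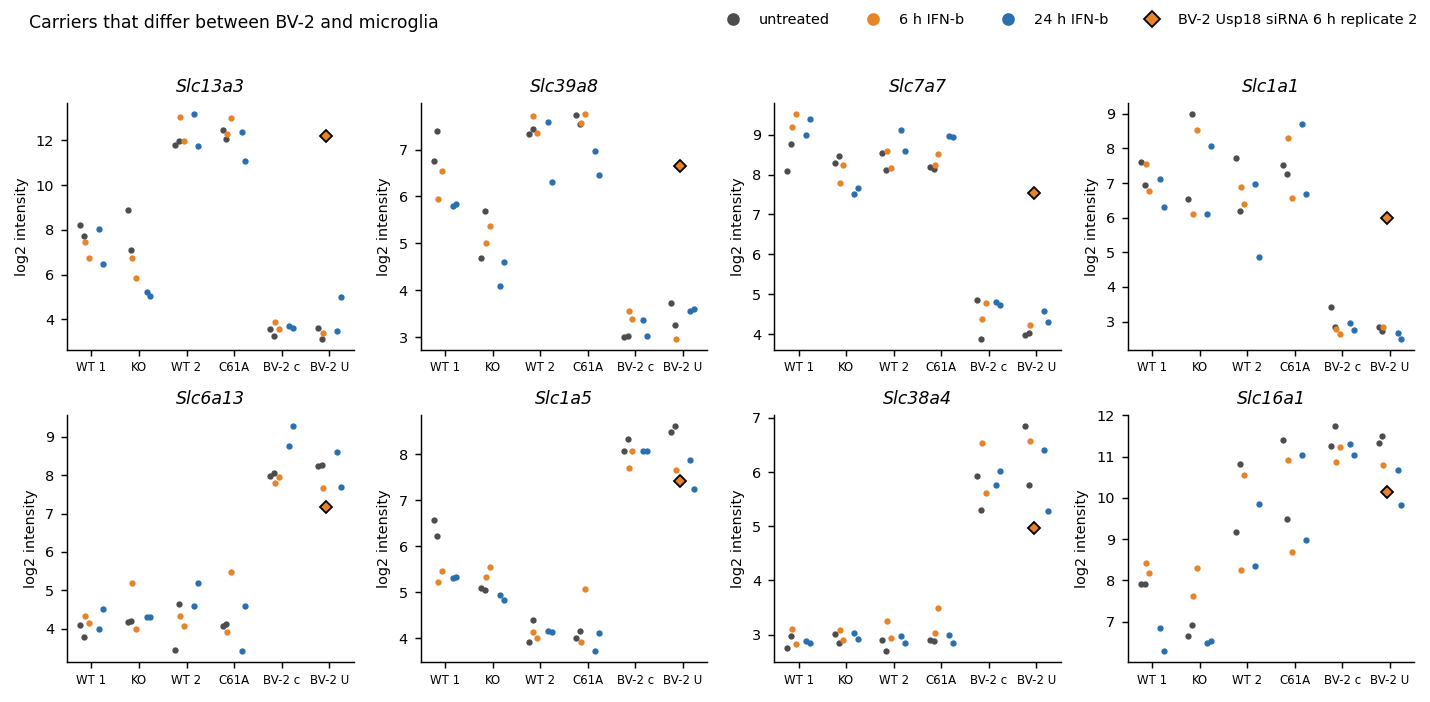
Log2 intensity of 8 carriers on each array by kind of cell (WT 1 and WT 2 are the sets of WT, BV-2 c the control siRNA, BV-2 U the Usp18 siRNA), with colour for time with IFN-b; each point is an array and the diamond is BV-2 Usp18 siRNA replicate 2 at 6 h. That array reads Slc13a3 at 12.21, where the other BV-2 arrays lie between 3.14 and 4.99.

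Several transporters of primary microglia stood high on BV-2 Usp18 siRNA replicate 2 at 6 h. There 9 member probe sets lay more than 1 above the highest of the other 11 BV-2 arrays, against 3 on Usp18 siRNA replicate 2 at 24 h and 0 on each of the other 10. The same count over all probe sets was not made, so the 9 are not read as particular to carriers. The 9 include both probe sets of Slc13a3 (12.21 and 11.20), 2 of Slc1a1 (5.99 and 5.76), Slc39a8 (6.64), Slc7a7 (7.54) and Slc24a3 (6.01). Replicate 1 of the same group read Slc13a3 at 3.39, Slc39a8 at 2.97 and Slc7a7 at 4.22. The microglial marker Cx3cr1 read 8.04 on that array and between 4.53 and 6.08 on the others, and P2ry12 6.45 against 2.75 to 3.54. The mean of the astrocyte markers was 6.06 there and at most 4.41 on untreated and 24 h BV-2 arrays. What brought these transcripts onto the array was not tested.

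Members also differed between the sets of WT before IFN-b, by a simple difference of means with no test. Slc13a3 averaged 7.97 in set 1 and 11.88 in set 2, Slc2a1 7.91 and 11.22, and Slc22a4, a carnitine and ergothioneine carrier, 3.71 and 6.55. Slc40a1 averaged 10.18 and 6.84, Slc46a3 7.86 and 4.70, and Slc1a5 6.41 and 4.16. Replicate 2 of untreated WT in set 2, the array not in doubt, read Slc13a3 at 11.98, Slc2a1 at 11.31, Slc22a4 at 7.60, Slc40a1 at 7.68, Slc46a3 at 4.84 and Slc1a5 at 4.39. KO matched set 1 and C61A set 2 for several of these: Slc13a3 averaged 8.0 in untreated KO and 12.25 in untreated C61A, Slc2a1 8.05 and 11.55. The astrocyte marker mean given above separates the same arrays, and its part in these levels was not tested. Slc40a1 and Slc46a3 in KO stood nearer to set 2, at 6.0 and 5.53.

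Of the 153 genes, 55 are read by more than 1 member probe set. Among genes called in any comparison there were 151 pairs of a tested probe set and another member probe set of the gene, and in 148 the difference ran in the same direction on both. The 3 exceptions were Slc25a44 in KO at 24 h, and Slc25a29 and Slc9a8 between BV-2 and WT. Correlation across the 36 arrays between probe sets of a gene was poor for Slc20a2 (lowest Pearson r -0.456) and Slc35a2 (-0.447), given as a description, since arrays of different cells share a scale.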

How the data were processed

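The deposited table gives 1 value per probe set and array for 36 arrays. The values run from 1.664 to 14.031 and were taken as log2 expression from that range, since the summary method, the normalization and the log base are not stated for the deposited values. The package affy is listed per the submitters' processing notes. Per the labels, RNA was amplified from the 3′ end, which limits each probe set to the transcripts it can bind. Genes were named from the platform annotation: 20393 probe sets have 1 symbol, 691 several and 1606 none. No sequencing depth applies, and 2 arrays per group limit the precision.

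Probe sets above the array median on 2 or more arrays were kept, the one with the highest mean standing for its gene. A limma (3.58.1, R 4.3.3) model with a mean per group was fitted to 24 microglia arrays and 7960 genes, to 12 BV-2 arrays and 7163 genes, and to all 36 arrays and 8260 genes for the line against primary cells. P-values were adjusted by the Benjamini-Hochberg method over all genes of a comparison. The procedure was tested on simulated data. The members, gene lists and tests were chosen with earlier results of these data known. Named genes were those called with the largest changes and no overlap between arrays, up to 10 in each direction, the members of each class with the highest means or widest range of group means, and called genes of the lists. Other genes were added where a count or a sentence on a class turned on them.

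Alternatives were centring of each array, no filter, the replicate number as a block, each set alone (set 2 also without its doubted arrays, and BV-2 against each WT set, both added after seeing the data), and leaving out single arrays or the 3 doubted ones. Same-numbered arrays of a line deviated together over time in every line (correlation 0.296 to 0.811), as did arrays of both siRNAs (0.322 to 0.506), so the number was read as a culture there. KO against WT of set 1 (-0.112 to -0.086) and C61A against WT of set 2 (-0.46 to -0.044) did not deviate together, so the number was not read as a pairing there. A block for the number within each set was still run. It gave 35 members for KO against WT untreated, 12 at 6 h and 55 at 24 h, and 0 for C61A against WT at each time. Promoters were read from a RefSeq table, and genes without an entry are not shown.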

Additional observations from a re-analysis of the deposited data

Results flagged for a closer look

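These differences between groups in the response to IFN-b passed limma's interaction test. KO and WT of set 1 differed in the response of Slc12a9 by -1.813 at 6 h and -1.878 at 24 h, of Slc15a3 by -1.415 at 6 h, of Slc7a8 by -1.61 at 6 h, of Slc46a3 by 2.448 at 6 h and of Slc24a3 by 2.057 at 24 h. The untreated KO mean of Slc46a3 lay below the lowest array median of 5.594, and whether a further fall could be read at that level was not tested. For Slc12a9 the WT arrays of set 1 went from 7.34 and 7.37 to 9.29 and 9.44 at 6 h, while KO went from 9.73 and 9.40 to 9.74 and 9.79.

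The WT sets differed in the 6 h response, as set 2 minus set 1, by -1.55 for Slc12a9, -1.528 for Slc15a3, -1.744 for Slc30a1, -2.302 for Slc7a5 and 2.445 for Slc46a3. None of these 5 passed the threshold without the 3 doubted arrays. Slc46a3 lay beneath the array median in set 2, and whether a fall could be read at that level was not tested.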

How the results depend on the processing

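Having 2 arrays per group limits every count of members past the threshold. Of the values of single called genes under the alternatives run, 1054 stayed past the threshold in the same direction, 637 kept the direction but missed it, and 2 reversed: Slc2a1 in WT at 6 h was -0.182 in set 2 alone and -0.27 there without the doubted arrays.

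With each array centred on its median, the KO minus WT response gave 2 members at 6 h and 1 at 24 h, the difference between the WT sets at 6 h gave 3, and the Usp18 siRNA at 6 h gave 0. With no filter on low values the first gave 2 and the third gave 3. Without the 3 doubted arrays, WT at 24 h gave 12, KO against WT at 6 h 14, C61A against WT at 24 h 2, the KO response at 6 h 26, the C61A response at 6 h 8, the KO minus WT response 12 at 6 h and 5 at 24 h, the WT sets at 6 h 0, the Usp18 siRNA at 6 h 0 and both siRNAs compared at 24 h 7. Set 1 alone gave 43 for WT at 6 h, and set 2 alone 0 at 6 h and 0 at 24 h, or 1 and 1 without its 2 doubted arrays, a setting chosen after seeing the data.

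With the replicate block over the times of a culture, the counts were 52 and 33 for WT at 6 h and 24 h, 37 and 25 for KO, 33 for C61A at 24 h, 15 and 12 for the KO minus WT response, 16 for the WT sets at 6 h, 2 for the control siRNA at 24 h, and 16 and 37 for the Usp18 siRNA. With the number as a block between the siRNAs, 20 differed at 24 h. The block moved no other count by over 1.5 times.

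Leaving out single arrays gave 10 to 34 members for WT at 6 h and 0 to 9 at 24 h. KO against WT gave 4 to 29 untreated, 0 to 17 at 6 h and 22 to 32 at 24 h. The KO response gave 0 to 22 and 0 to 13, the KO minus WT response 0 to 4 and 0 to 1, and the WT sets 0 to 13 at 6 h. C61A against WT gave 0 to 3 untreated, the C61A response 2 to 4 at 24 h and its difference from WT 0 to 2. The Usp18 siRNA gave 0 to 11 at 6 h and 0 to 38 at 24 h, both siRNAs compared 0 to 6 and 0 to 32, and their difference in response at 24 h 0 to 7. BV-2 against WT gave 71 to 86. The causes of these shifts were not tested.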
